A study of Caenorhabditis elegans with 5 samples.

Results

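The comparison set pre-mRNA in hrde-1 mutant worms against pre-mRNA in met-2 set-25 mutant worms, that is, loss of a nuclear Argonaute protein against loss of a pair of histone methyltransferases (HMTs). The 2 libraries were chosen by genotype among the 5 of the study, with 1 library per genotype and therefore no replicate check, no test and no p-value at any value below. The hrde-1 worms carried the allele tm1200, and the met-2 set-25 worms carried met-2 allele n4256 together with set-25 allele ok5021. WT (N2), set-32 (ok1457) and the triple mutant that combines these same HMT alleles were used only to place values beside the pair. All were whole young adults raised at 19 °C on OP50 bacteria, so that germline and somatic nuclei both contributed. RNA was recovered from chromatin immunoprecipitated for the elongating form of RNA polymerase II, whose C-terminal repeat is phosphorylated at serine 2, a measurement called pre-mRNA-seq. Values were RPKM (reads per kilobase, scaled by sequencing depth) in windows of 1 kb, and 99764 of 100270 windows were compared after 506 that the authors mark as misannotated were left out.

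HRDE-1 is bound to small RNAs in the germline and brings the nuclear RNAi machinery to nascent transcripts of matching sequence. Nuclear RNAi then lowers transcription at the target and leads to methylation of histone H3 at lysine 9 (H3K9me3), a mark of silent chromatin. MET-2 adds the first methyl groups to this lysine and SET-25 completes H3K9me3. The native targets of germline nuclear RNAi include many long terminal repeat retrotransposons. Loss of HRDE-1 removes the Argonaute and its signal, whereas loss of MET-2 and SET-25 removes much of the mark while HRDE-1 is still present. The paper reports that hrde-1 mutants also lose H3K9me3 at these targets, so the mark is reduced there in both strains, though not to the same degree. The contrast therefore compares pre-mRNA at a locus without the Argonaute and with it. It does not by itself separate the Argonaute from the methylation.

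The windows that bear on this comparison are marked in the deposited table. GRTS windows (germline nuclear RNAi-dependent transcriptional silencing, 191 kept) and GRH windows (germline nuclear RNAi-dependent heterochromatin, 215 kept, 25 of them also GRTS) were drawn by the authors from earlier hrde-1 work, so they are not independent evidence of the direction in hrde-1. Further marks name windows that lost H3K9me3 in the set-32, the met-2 set-25 or the triple mutant. Every ratio below is hrde-1 over met-2 set-25. For calls and medians 1 RPKM was added to each value first, which understates the difference at low windows, whereas a ratio of sums or of a named locus or run has nothing added. A window was called higher or lower in hrde-1 when the ratio after this addition was at least 2 in that direction. At least 20 RPKM also had to stand in the larger of the 2 values. Where a class of windows is higher in 1 library, this minimum is reached more often through that library. The minimum then favours calls in that direction, in every class below.

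The 2 libraries had nearly the same depth. From the steps of the low values, 1 read was worth 1.47 RPKM in hrde-1 and 1.49 RPKM in met-2 set-25 worms, which gave 678632 reads in hrde-1 and 669980 in met-2 set-25, so that 20 RPKM stood for 13.6 reads in hrde-1 and 13.4 reads in met-2 set-25. Windows at 0 numbered 35562 in hrde-1 and 30087 in met-2 set-25, and a window at 0 still allows up to 3 reads, or 4.42 RPKM in hrde-1 and 4.48 RPKM in met-2 set-25 worms. The ribosomal RNA gene windows at the right end of chromosome I (ce6 I:15060001-15072000) took 8.90% of the hrde-1 signal, 5.73% of the met-2 set-25 signal and 4.64% of the WT signal. They were left out of the sums below except for tier 8, and out of the shares of signal by level. The set-32 and triple mutant libraries belong to another library set than the pair and WT, and this block took 27.8% of the signal in set-32 and 37.3% in the triple mutant, which lowers their RPKM elsewhere, so their values below are given for orientation only. Intervals are 95% and cover counting error only, except that an interval of a median is taken over windows. Adjacent windows and windows that share reads are not independent, so the intervals of medians may be too narrow.

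Across the genome the pair differed at a minority of windows, and more of them were lower than higher in hrde-1. Of 15736 windows whose larger value reached 20 RPKM, 1100 (6.99%) were called higher in hrde-1 and 1562 (9.93%) were called lower. When the counting interval of the ratio also had to exclude 1, 867 (5.51%) were higher and 1179 (7.49%) were lower. Higher calls were thus 41.3% of all calls, but 55.5% when hrde-1 was rescaled to a median ratio of 1 over windows in no list and 58.2% under a trimmed-mean rescaling, so which direction held more calls was set by the scaling. These rescalings raised the hrde-1 values by 0.14 and 0.16 on the log2 scale, with no effect on windows at 0. Over the 37411 windows whose pair mean was 5 RPKM or more, the median ratio was 0.923 and the log2 values had a Pearson correlation of 0.70, given as a description across windows of 2 libraries.

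The balance between the genotypes followed the level of the window. In windows with a pair mean of 5 to 20 RPKM the median ratio was 0.859 over 24752 windows, and in windows of 20 to 100 RPKM it was 0.988 over 11844 windows. In the 803 windows of 100 RPKM or more outside the rRNA gene block it was 1.09, and these windows held 18.0% of the signal outside this block in hrde-1, 14.8% in met-2 set-25 and 15.9% in WT. Windows with a mean from 1 to below 5 RPKM held 5.80% of this signal in hrde-1, against 7.73% in met-2 set-25.

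**Figure D1:**
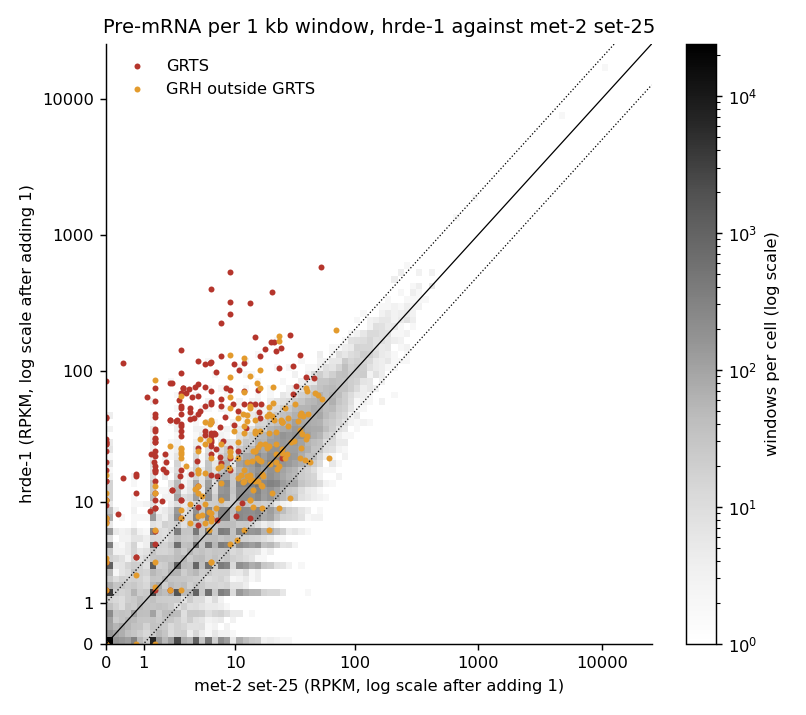
Pre-mRNA level of each 1 kb window in hrde-1 (vertical axis) and met-2 set-25 (horizontal axis), in RPKM on log scales after adding 1. Grey cells count all 99764 windows, red points are GRTS windows and orange points are GRH windows outside GRTS, the solid line marks equal levels and the dotted lines a ratio of 2. Most GRTS points lie above the upper dotted line, while GRH windows outside GRTS lie on both sides of it, mostly above the line of equal levels.

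GRTS windows stood far higher in hrde-1 than in met-2 set-25. Their median level was 35.4 RPKM in hrde-1 (from 0 to 575.4 RPKM) and 3.73 RPKM in met-2 set-25 worms (from 0 to 52.98 RPKM), beside 5.75 RPKM in WT worms, 5.09 RPKM in set-32 and 3.09 RPKM in the triple mutant. The middle range of GRTS windows, from the lower to the upper quartile, was 17.3 to 70.7 RPKM in hrde-1 and 1.49 to 7.59 RPKM in met-2 set-25 worms, and these ranges did not overlap. The median ratio was 7.69 (6.06 to 8.92), against 1.00 over all windows. Together the GRTS windows held 7736 reads in hrde-1 and 848 in met-2 set-25, a ratio of sums of 9.01 (8.39 to 9.68). These were 1.14% of the hrde-1 signal and 0.127% of the met-2 set-25 signal, with the rRNA gene windows kept in both totals.

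The direction was nearly uniform over the list. Of 191 GRTS windows 184 were above met-2 set-25 in hrde-1, 6 were below and 1 was at 0 in both. The rule for calls could be met by 135 of them, each through its level in hrde-1, so the minimum itself favoured higher calls. Of these 135, 133 (98.5%, against 6.99% of all windows) were called higher and none was called lower. Over the whole list that is 133 of 191 windows. The list was drawn from hrde-1, and what these counts add is the level in met-2 set-25, which reached 20 RPKM at 15 GRTS windows, against 135 in hrde-1 and 28 in WT. The uncalled ones were V:8482001-8483000 (88.4 RPKM in hrde-1 and 46.3 RPKM in met-2 set-25 worms) and V:16102001-16103000 (22.1 RPKM in hrde-1 and 25.4 RPKM in met-2 set-25 worms). The other windows that were not above met-2 set-25 were low in both mutants, at most 9.82 RPKM in hrde-1 and 13.4 RPKM in met-2 set-25 worms.

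The GRTS contrast was seen in each tier of H3K9me3 that held GRTS windows and on every autosome. The deposited table places each window in a tier from 1 to 8, whose definition is not given in the sources used here. The loss marks show how the tiers run, since 99 of 100 windows of tier 1, 877 of 891 of tier 2, 2244 of 4040 of tier 3 and 268 of 20582 of tier 4 carry a mark of lost H3K9me3 in both replicates of at least 1 HMT mutant, whereas 1 window of tier 5 and none of tiers 6 and 7 does. The median ratio of GRTS windows was 10.4 in tier 1 (20 windows), 8.36 in tier 2 (62 windows), 7.29 in tier 3 (68 windows), 6.48 in tier 4 (32 windows) and 3.53 in tier 5 (9 windows). By chromosome it was 3.95 on I, 5.01 on II, 8.05 on III, 7.33 on IV and 10.6 on V, which held 84 of the 191 windows. X held no GRTS window.

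GRTS windows were often built of repeats, and reads from a repeat are split between its copies. In 89 GRTS windows both values were whole numbers of reads, and the ratio of their sums was 8.16 (7.34 to 9.08). In the 102 others, which hold fractions of reads shared with other places, it was 9.74 (8.84 to 10.7). The contrast was thus present in windows free of such fractions as well as in the others.

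GRH windows outside GRTS differed less. Their median level was 22.1 RPKM in hrde-1 and 12.7 RPKM in met-2 set-25 worms, beside 16.9 RPKM in WT worms, 15.6 RPKM in set-32 and 7.72 RPKM in the triple mutant. The quartiles were 11.8 and 41.3 RPKM in hrde-1 and 5.22 and 20.9 RPKM in met-2 set-25 worms, so the ranges overlapped. The median ratio over these 190 windows was 1.64 (1.50 to 1.98), and the ratio of sums was 2.02 (1.91 to 2.14). Over all 215 GRH windows the median ratio was 1.93 (1.63 to 2.36).

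Among GRH windows outside GRTS, 114 reached 20 RPKM, of which 55 (48.2%) were called higher and 4 (3.51%) lower, with 6.99% and 9.93% of all windows as background. That level was reached by 108 in hrde-1 and by 51 in met-2 set-25. WT lay between the mutants at 46 of the 55 higher windows, and at 812 of all 1100 windows called higher. Called windows were chosen for a wide gap between the pair, which by itself favours a WT value between them. At the 55 windows the medians were 42.7 RPKM in hrde-1, 10.5 RPKM in met-2 set-25 worms and 19.5 RPKM in WT. The lower windows were I:5980001-5982000 (15.7 RPKM in hrde-1, 36.4 RPKM in met-2 set-25 worms and 77.0 RPKM in WT), III:2605001-2606000 (22.1 RPKM in hrde-1, 61.9 RPKM in met-2 set-25 worms and 47.0 RPKM in WT) and V:15591001-15592000 (8.84 RPKM in hrde-1, 23.9 RPKM in met-2 set-25 worms and 25.5 RPKM in WT). By tier, 11 of 13 such windows of tier 2 were called higher, against 21 of 55 in tier 3 and 21 of 37 in tier 4, while in tier 5 1 was higher and 1 lower of 6 and the median ratio over the 10 windows was 0.809.

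The windows in both lists had the widest gap. All 25 were above met-2 set-25 in hrde-1, and all 22 that reached 20 RPKM were called higher. Each of the 22 reached that level in hrde-1 and 2 reached it in met-2 set-25, so the minimum favoured higher calls here too. Their median level was 53.1 RPKM in hrde-1 and 4.48 RPKM in met-2 set-25 worms, beside 7.30 RPKM in WT. The median ratio was 12.9 (5.53 to 18.5), and the ratio of sums was 14.4 (11.9 to 17.6).

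Single loci show the size of the difference. Of the 10 GRTS windows with the highest mean of the pair, 3 were adjacent at I:4460001-4463000, in both lists and in tiers 1 and 2. They averaged 410.9 RPKM in hrde-1 (836 reads) and 12.9 RPKM in met-2 set-25 worms (26 reads), a ratio of 31.8 (21.5 to 48.9), with 19.9 RPKM in WT. The middle window, I:4461001-4462000, held 533.4 RPKM in hrde-1 and 8.95 RPKM in met-2 set-25 worms. At IV:4128001-4131000 the mean was 371.7 RPKM in hrde-1 and 24.6 RPKM in met-2 set-25 worms, a ratio of 15.1 (11.4 to 20.8), with 19.5 RPKM in WT. At V:5183001-5185000 it was 332.6 RPKM in hrde-1 and 7.46 RPKM in met-2 set-25 worms, a ratio of 44.6 (24.0 to 93.7), with 43.3 RPKM in WT. The remaining GRTS windows of this set were II:2157001-2158000 (181.9 RPKM in hrde-1 and 29.4 RPKM in met-2 set-25 worms) and V:5187001-5188000 (178.3 RPKM in hrde-1 and 14.9 RPKM in met-2 set-25 worms). At each of these loci no other library reached the hrde-1 level, and met-2 set-25 averaged below 30 RPKM.

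The GRH windows outside GRTS with the highest means were V:5474001-5478000 and V:10048001-10049000. The 4 windows at V:5474001-5478000, all in tier 2, averaged 150.1 RPKM in hrde-1 and 17.2 RPKM in met-2 set-25 worms, a ratio of 8.75 (6.45 to 12.2). WT stood between the mutants there at 53.2 RPKM, with set-32 at 19.1 RPKM and the triple mutant at 3.09 RPKM. The window V:10048001-10049000, of tier 4 and with no loss mark, held 198.9 RPKM in hrde-1 and 70.2 RPKM in met-2 set-25 worms, beside 48.3 RPKM in WT.

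The highest ratios among called windows came from loci that were close to silent in met-2 set-25. At II:2152001-2153000 (GRTS, tier 4) hrde-1 held 57 reads (84.0 RPKM) and met-2 set-25 none, which with 3 reads allowed per library made hrde-1 at least 18.8-fold higher. At V:20300001-20302000, a pair of windows outside both lists with every loss mark, hrde-1 held 73 reads (54.2 RPKM) and met-2 set-25 none, at least 24.2-fold higher, with 1.14 RPKM in WT. At III:7676001-7677000, outside both lists and marked in the triple mutant, hrde-1 held 28 reads and met-2 set-25 none, at least 9.22-fold higher, with 10.5 RPKM in WT. The other windows of this set were V:5183001-5184000, V:5193001-5194000, V:5195001-5196000, V:8840001-8841000 and V:8882001-8883000, all of them GRTS windows except the last, which is described with its run below, and I:4461001-4462000.

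Most calls of either direction were single windows, and longer runs were more frequent among the higher ones. The 1100 windows called higher formed 734 runs of adjacent windows, of which 599 were single windows and 15 were 6 kb or longer, holding 188 windows. The 1562 windows called lower formed 1284 runs, of which 1093 were single and 4 were 6 kb or longer, holding 28 windows. Of the long higher runs 10 held a GRTS or GRH window and 11 held a window with a loss mark, and none of the long lower runs held either. Runs of 3 kb or more took 359 of the higher windows and 187 of the lower windows.

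The longest higher run was 22 kb at V:5180001-5202000, with 18 GRTS windows and tiers from 1 to 5. It averaged 107.3 RPKM in hrde-1 (1603 reads) and 9.29 RPKM in met-2 set-25 worms (137 reads), a ratio of 11.6 (9.70 to 13.9), and WT averaged 15.6 RPKM. The next were V:8825001-8843000 (18 kb) and V:8868001-8885000 (17 kb), each with 12 GRTS windows and a MET-2 SET-25-dependent mark on every window. The first of these averaged 50.4 RPKM in hrde-1 and 3.31 RPKM in met-2 set-25 worms (ratio 15.2, 11.02 to 21.5), and the second 52.8 RPKM in hrde-1 and 3.35 RPKM in met-2 set-25 worms (ratio 15.7, 11.4 to 22.6). In each of these runs only 1 window had whole reads in both libraries, so that most of their windows held reads shared with other places. Whether those places are each other was not examined here, and the values of these runs may not be separate measurements. In both runs met-2 set-25 was below WT (8.61 and 8.86 RPKM).

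Of the 14 kb runs, II:2150001-2164000 held 9 GRTS windows and V:5471001-5485000 held 7 GRH windows and 1 GRTS window. The chromosome II run averaged 93.3 RPKM in hrde-1 and 19.5 RPKM in met-2 set-25 worms (ratio 4.79, 4.07 to 5.64), with 29.3 RPKM in WT. The V:5471001-5485000 run averaged 84.0 RPKM in hrde-1 and 12.7 RPKM in met-2 set-25 worms (ratio 6.63, 5.45 to 8.10), with 28.3 RPKM in WT worms, 10.9 RPKM in set-32 and 3.85 RPKM in the triple mutant.

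The 3 longest higher runs with no GRTS or GRH window, chosen after their values were seen, differed in where WT stood. At II:1937001-1950000 (13 kb, tier 2, MET-2 SET-25-dependent mark on every window) the mean was 73.6 RPKM in hrde-1 and 10.2 RPKM in met-2 set-25 worms, with 44.4 RPKM in WT. At III:13405001-13419000 (14 kb, no mark) it was 34.4 RPKM in hrde-1 and 8.64 RPKM in met-2 set-25 worms, with 23.5 RPKM in WT. At III:6563001-6576000 (13 kb, no mark, no window with whole reads) it was 101.3 RPKM in hrde-1 and 12.6 RPKM in met-2 set-25 worms, with 101.5 RPKM in WT worms, 98.4 RPKM in set-32 and 26.3 RPKM in the triple mutant. In the last run hrde-1, WT and set-32 were close together, and both strains without MET-2 and SET-25 lay below them.

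**Figure D2:**
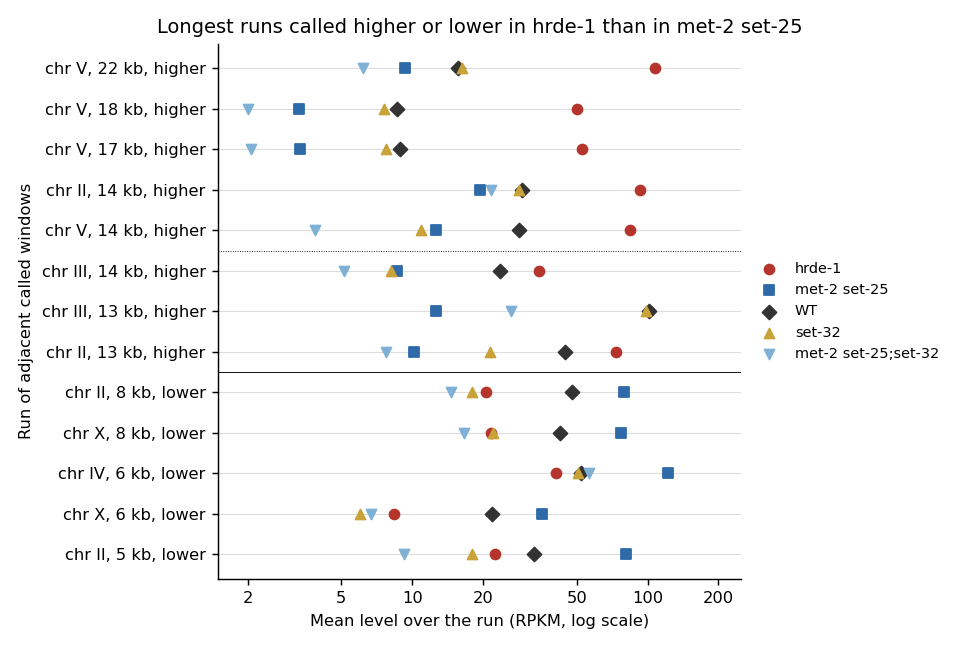
Mean pre-mRNA level (RPKM, log scale) in hrde-1, met-2 set-25, WT, set-32 and the triple mutant over runs of adjacent called windows, from top to bottom the 5 longest higher runs, the 3 longest higher runs without a GRTS or GRH window (below the dotted line) and the 5 longest lower runs (below the solid line). In the top 5 rows hrde-1 stands apart on the right of all others, while in the 13 kb run of chromosome III it lies on WT (101.3 and 101.5 RPKM) and in the lower runs met-2 set-25 is the highest library.

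The longest lower runs were elsewhere and carried no loss mark. At II:13285001-13293000 (8 kb) the mean was 20.6 RPKM in hrde-1 and 79.5 RPKM in met-2 set-25 worms (ratio 0.260, 0.209 to 0.320), with 47.9 RPKM in WT worms, and a 5 kb run began 1 window further on at II:13294001-13299000 (22.4 RPKM in hrde-1 and 80.6 RPKM in met-2 set-25 worms). At X:4141001-4149000 (8 kb) it was 21.5 RPKM in hrde-1 and 76.8 RPKM in met-2 set-25 worms, with 42.4 RPKM in WT. At IV:16167001-16173000 (6 kb) it was 40.8 RPKM in hrde-1 and 122.5 RPKM in met-2 set-25 worms, with 52.3 RPKM in WT. At X:5937001-5943000 (6 kb) it was 8.35 RPKM in hrde-1 and 35.6 RPKM in met-2 set-25 worms, with 21.7 RPKM in WT. WT lay between the mutants in all of these runs, as it did at 1188 of all 1562 windows called lower. The choice of windows by a wide gap between the pair favours this position of WT.

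The lowest ratios were single windows or pairs with 0 or 1 read in hrde-1. At V:4693001-4695000 hrde-1 held 1 read and met-2 set-25 held 44, a ratio of 0.0229 (0.00056 to 0.132), with 7.81 RPKM in WT. At X:7988001-7989000 hrde-1 held 1 read and met-2 set-25 held 29 (43.3 RPKM). At II:2586001-2587000 and III:6508001-6509000 hrde-1 held none and met-2 set-25 held 20 reads each, at least 6.75-fold lower in hrde-1. At the other windows of this set (I:6963001-6964000, I:12955001-12956000, V:5060001-5061000, V:8935001-8936000 and X:13921001-13922000) hrde-1 held none and met-2 set-25 between 14 and 18 reads. All of them were in tiers 4 to 6 with no loss mark.

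Where WT stood differed between the kinds of window. At the 133 GRTS windows called higher the medians were 54.5 RPKM in hrde-1, 5.27 RPKM in met-2 set-25 worms and 8.21 RPKM in WT. At the 708 higher windows outside tiers 1 to 3 with no list and no mark (64.4% of higher calls) the medians were 29.8 RPKM in hrde-1, 11.9 RPKM in met-2 set-25 worms and 23.7 RPKM in WT worms, so that WT was nearer to hrde-1. At the 1478 lower windows of the same kind the medians were 10.3 RPKM in hrde-1, 29.9 RPKM in met-2 set-25 worms and 17.3 RPKM in WT worms. WT lay between the mutants at 1130 of them, and at 1188 of all 1562 windows called lower, a position that the choice by gap favours. WT was above both mutants at 148 of the 708 higher windows and at 2 of the 133 GRTS windows.

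Windows that lost H3K9me3 in HMT mutants were then compared outside GRTS and GRH. Most SET-32-dependent windows (339 of 604) reached a pair mean of 5 RPKM. Most MET-2 SET-25-dependent and triple-marked windows did not (1035 of 2435 and 1187 of 2996 reached it). In each list the windows that reached this mean leaned to hrde-1. SET-32-dependent windows (604) had a median ratio of 1.15 (1.00 to 1.29), MET-2 SET-25-dependent windows (2435) of 1.00 (1.00 to 1.00) and windows marked in the triple mutant (2996) of 1.00 (1.00 to 1.00), against 1.00 over all windows. With a pair mean of 5 RPKM or more the medians were 1.53 (339 windows), 1.19 (1035 windows) and 1.20 (1187 windows), against 0.923 over all such windows. The ratio of sums was 1.66 (1.60 to 1.72) for SET-32-dependent, 1.24 (1.21 to 1.26) for MET-2 SET-25-dependent and 1.25 (1.23 to 1.28) for triple-marked windows. These lists overlap, and each includes the 12 rRNA gene windows in its counts and medians.

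Calls leaned the same way. Of 178 SET-32-dependent windows that reached 20 RPKM, 87 (48.9%) were called higher and 9 (5.06%) lower. Of 508 MET-2 SET-25-dependent windows 149 (29.3%) were higher and 49 (9.65%) lower, and of 555 triple-marked windows 168 (30.3%) were higher and 55 (9.91%) lower. The background over all windows was 6.99% higher and 9.93% lower. MET-2 SET-25-dependent windows without a SET-32 mark (1874) held most of this list and leaned less, with 66 higher (19.2%) and 40 lower (11.7%) of 343 and a ratio of sums of 1.09 (1.06 to 1.12). Windows marked in the triple mutant alone (764) had 19 higher and 14 lower of 92.

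Distance from the nearest GRTS or GRH window, a split chosen after the values were seen, separated these windows. Among SET-32-dependent windows 1 to 2 kb from a listed window, 42 of 70 were called higher and none lower, and the medians were 20.8 RPKM in hrde-1, 7.46 RPKM in met-2 set-25 worms and 10.0 RPKM in WT. Among those more than 10 kb away, 34 of 84 were higher (40.5%) and 7 lower (8.33%), with 12 of these 84 in the rRNA gene block. Their ratio of sums was 1.37 (1.30 to 1.44). Among MET-2 SET-25-dependent windows without a SET-32 mark, 18 of 28 (64.3%) were higher and none lower at 1 to 2 kb (ratio of sums 2.39, 2.13 to 2.67). At 3 to 10 kb 11 were higher (45.8%) and 1 lower (4.17%) of 24 (1.60, 1.46 to 1.76). Beyond 10 kb 37 were higher (12.7%) and 39 lower (13.4%) of 291 (1.01, 0.981 to 1.03). Unmarked windows of tiers 4 to 7 at that distance had 4.48% higher and 10.2% lower. Beyond 10 kb, windows marked in the triple mutant alone had 9 higher (12.7%) and 14 lower (19.7%) of 71 (0.975, 0.925 to 1.03).

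Windows of tiers 4 to 7 without any mark showed the same order at lower values. At 1 to 2 kb from a listed window, 34 of 92 (37.0%) were called higher and 1 lower, with medians of 7.76 RPKM in hrde-1, 4.48 RPKM in met-2 set-25 worms and 5.47 RPKM in WT. At 3 to 10 kb 35 of 371 (9.43%) were higher and 20 (5.39%) lower. Beyond 50 kb 585 of 12960 (4.51%) were higher and 1310 (10.1%) lower, with a ratio of sums of 0.934 (0.930 to 0.937). Beyond 10 kb, SET-32-dependent windows were the marked class in which higher calls still outnumbered lower ones. SET-32-dependent windows at that distance with a pair mean of 5 RPKM or more had medians of 16.1 RPKM in hrde-1 and 10.6 RPKM in met-2 set-25 worms. WT was near hrde-1 there, at 15.8 RPKM. Of their 34 higher calls, 10 lay in the single run II:1937001-1950000.

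**Figure D3:**
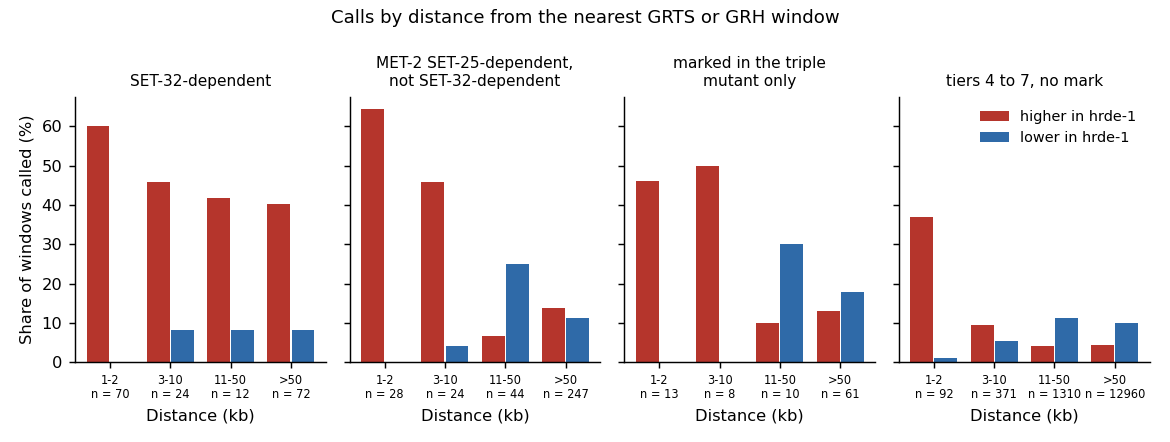
Share of windows (%, those whose larger value reached 20 RPKM, n under each pair of bars) called higher (red) or lower (blue) in hrde-1 than in met-2 set-25, by distance in kb from the nearest GRTS or GRH window, in 4 classes of window outside both lists. The share called higher is greatest within 2 kb in all panels except that of windows marked in the triple mutant only, and beyond 50 kb it stays at 40.3% for SET-32-dependent windows but is 13.8%, 13.1% and 4.51% in the other classes.

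Over the H3K9me3 tiers as a whole, the share of windows called higher was greatest in tiers 1 to 3, although most higher calls by number lay in tiers 4 to 7. In tier 1, the median level of windows with a pair mean of 5 RPKM or more was 54.9 RPKM in hrde-1 and 11.9 RPKM in met-2 set-25 worms (60 windows), and their median ratio was 1.83 (1.30 to 3.41). It was 2.08 (1.80 to 2.40) in tier 2, 1.19 (1.12 to 1.24) in tier 3, 0.914 (0.889 to 0.937) in tier 4, 0.818 (0.814 to 0.841) in tier 5, 0.841 (0.819 to 0.845) in tier 6 and 0.981 (0.952 to 0.988) in tier 7. Without GRTS and GRH windows it was 1.17 (0.812 to 1.59) in tier 1, 1.63 (1.42 to 1.89) in tier 2 and 1.10 (1.05 to 1.15) in tier 3. Tier 2 thus kept the highest of these 3 values without the listed windows. At a mean of at least 20 RPKM, with listed windows kept, the medians were 0.9875 in tier 4, 0.925 in tier 5, 0.926 in tier 6 and 0.988 in tier 7.

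The shares of calls ran the same way. Of windows that reached 20 RPKM, 23 of 40 (57.5%) were higher in tier 1, 140 of 231 (60.6%) in tier 2 and 178 of 553 (32.2%) in tier 3, and 1, 7 and 63 were lower. In tier 4 the directions were level, at 242 higher (13.1%) and 254 lower (13.8%) of 1844. Lower calls were more frequent in tier 5 (97 higher, 6.07%, and 299 lower, 18.7%, of 1599) and tier 6 (93 higher, 4.38%, and 316 lower, 14.9%, of 2123). They were also more frequent in tier 7 (327 higher, 3.50%, and 622 lower, 6.66%, of 9333). Over all windows 6.99% were higher and 9.93% lower. The calls by tier were not recomputed under the rescalings, which changed the side with more calls over the genome. Outside GRTS and GRH, tier 2 still had 77 higher and 7 lower of 166 windows and tier 3 had 111 higher and 60 lower of 452.

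**Figure D4:**
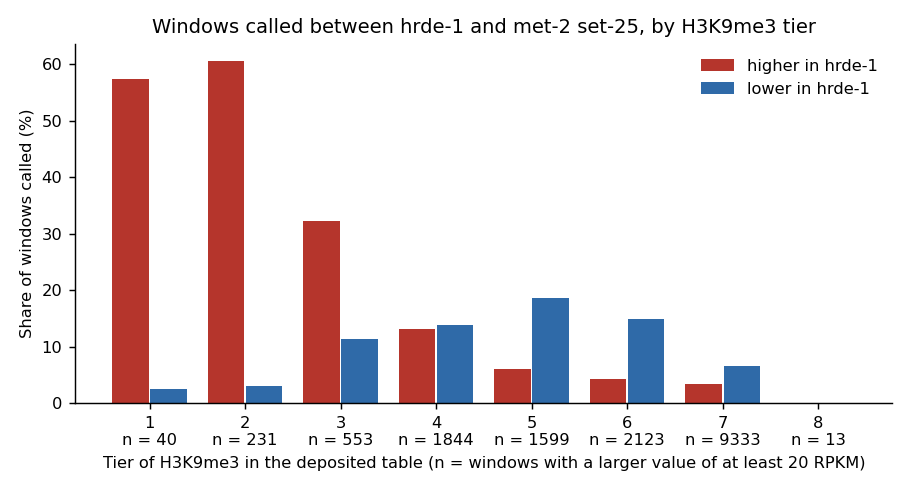
Share of windows (%) called higher (red) or lower (blue) in hrde-1 than in met-2 set-25 in each H3K9me3 tier of the deposited table, over windows whose larger value was at least 20 RPKM (n under each tier). Higher calls reach 57.5% and 60.6% in tiers 1 and 2, and both directions are near 13% to 14% in tier 4. Lower calls exceed higher ones from tier 5 to tier 7, at the deposited scaling.

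Tier 8 held 13 windows, 12 of them in the rRNA gene block, and none was called. Ribosomal RNA there is made by RNA polymerase I, so its presence in these libraries is not a measure of elongating polymerase II. The median was 6432 RPKM in hrde-1, 4184 RPKM in met-2 set-25 worms and 3372 RPKM in WT worms, and the ratio of sums was 1.55 (1.53 to 1.57). The 5 windows of the genome with the highest mean were all in this block. The windows I:15064001-15068000 averaged 12964 RPKM in hrde-1, 8360 RPKM in met-2 set-25 worms, 6776 RPKM in WT and 40907 RPKM in set-32, and I:15070001-15071000 held 7510 RPKM in hrde-1 and 4783 RPKM in met-2 set-25 worms.

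By the median ratio, chromosomes differed little among the autosomes, and X lay below them. The median ratio of windows with a pair mean of 5 RPKM or more was 0.937 on I, 0.944 on II, 0.945 on III, 0.944 on IV and 0.902 on V (0.886 to 0.916), and 0.814 on X (0.814 to 0.841). On X these windows had a median of 8.84 RPKM in hrde-1, 10.5 RPKM in met-2 set-25 worms and 9.12 RPKM in WT. The X median stayed below 1 under each of the 3 rescalings. It also stayed below the autosomal one at higher levels, with medians of 0.887 over 713 X windows and 0.988 over 11946 autosomal windows that had a mean of at least 20 RPKM. By the ratio of sums X was level with V, at 0.944 (0.934 to 0.955) on X and 0.947 (0.939 to 0.955) on V. That ratio was 0.968 (0.964 to 0.972) over all autosomes. Much of X is silent in the germline and active in somatic cells, and in whole animals fewer cells of a type and less RNA per cell cannot be told apart. The share of germline in each sample was not measured here, and its part in the X value was not tested.

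Calls per chromosome, higher first, were 217 and 281 on I, 220 and 276 on II, 189 and 255 on III, 184 and 257 on IV, 208 and 275 on V, and 82 and 218 on X. On X 8.19% of the 1001 windows that reached 20 RPKM were called higher and 21.8% lower, against 6.91% and 9.12% of 14735 on the autosomes. The lower share on X was 25.8% in the left 30% of the chromosome, 18.8% in the middle and 21.6% in the right 30%. In the left 500 kb of X, a region rich in H3K9me3, the ratio of sums was 0.740 (0.690 to 0.793), with 1 window higher and 9 lower of 27, of which 0 higher and 3 lower also had a counting interval that excluded 1, and on the rest of X it was 0.95 (0.940 to 0.961).

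Autosomal arms, the outer 30% on each side, where H3K9me3 is enriched in this species, had a median ratio of 0.916 (0.908 to 0.926), and centres had 0.974 (0.946 to 0.988). Both crossed 1 under rescaling to windows in no list, to 1.00 in arms and 1.07 in centres, so neither stands as a direction of its own. At a mean of at least 20 RPKM the medians were 0.988 in arms and 0.997 in centres. Arms held more calls in both directions, with 624 higher (8.39%) and 775 lower (10.4%) of 7433 windows, against 394 higher (5.40%) and 569 lower (7.79%) of 7302 in centres. Without GRTS and GRH windows 6.70% of arm windows and 4.76% of centre windows were higher.

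Some stretches held many calls, picked out here after their values were seen. Between 10% and 15% of the length of chromosome II, 53 of 95 windows that reached 20 RPKM were called higher (55.8%) and 4 lower (4.21%). Over all windows the shares were 6.99% and 9.93%. Of the 53, 9 were GRTS windows, 1 was a GRH window and 37 others carried a loss mark. Their medians were 54.3 RPKM in hrde-1, 7.46 RPKM in met-2 set-25 worms and 28.4 RPKM in WT worms, and this stretch includes the runs at II:1937001-1950000 and II:2150001-2164000. Between 40% and 45% of chromosome V, which holds V:8825001-8843000 and V:8868001-8885000, 40 of 211 were higher (19.0%), 26 of them GRTS windows, and 17 were lower (8.06%). The ratio of sums over this stretch was 1.01. Most windows of the named runs hold shared reads, so their calls may not be separate. The largest share of lower calls was at 20% to 25% of X, with 23 lower (41.8%) and 9 higher (16.4%) of 55.

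**Figure D5:**
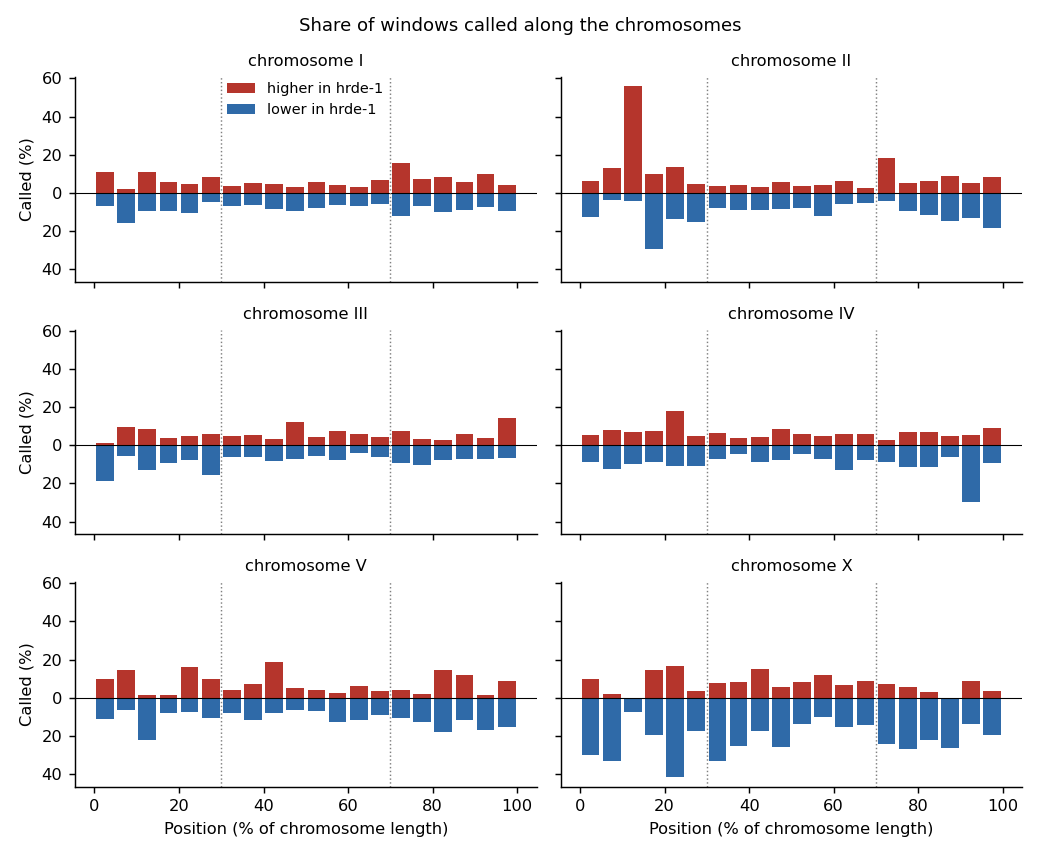
Share of windows (%, of those whose larger value reached 20 RPKM) called higher (red, upward) or lower (blue, downward) in hrde-1 than in met-2 set-25 in steps of 5% of chromosome length, with dotted lines at 30% and 70%, the borders of arms and centre. Higher calls peak at 10% to 15% of chromosome II (55.8%), and lower calls are most frequent on X, reaching 41.8% at 20% to 25% of its length.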

How the data were processed

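The deposited table holds RPKM values that the authors made per 1 kb window of the WS190 (ce6) genome, from reads aligned with Bowtie 0.12.7 with perfect alignments alone, a read with several places counted as an equal fraction at each. No library was pooled. The authors also deposited a score from 1 to 8, a tier of H3K9me3, and marks for the window lists. Columns carry library codes, which the study's library list pairs with genotypes, and 0 columns of other samples were left aside. Both libraries are from the same library set.

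Reads were recovered as value over step, and 78.4% (hrde-1) and 79.9% (met-2 set-25) of positive values were whole within 0.02 read. Intervals are 95% exact Clopper-Pearson from rounded reads of the pair, or binomial order-statistic intervals for medians, and 3 reads were the limit for a count of 0. PCR copies are not independent molecules. Medians by tier and position used windows whose pair mean was 5 RPKM or more, and those of lists used every window. Scripts ran in Python 3.11.15 with numpy 2.4.6, pandas 2.3.3, scipy 1.17.1 and matplotlib 3.10.9 and were tested on simulated data.

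Windows were named by rule: the 10 highest and 10 lowest ratios among called windows, the 10 GRTS windows and 5 GRH windows outside GRTS with the highest mean of the pair, the 5 highest means of the genome, and the 5 longest runs in each direction, ties by reads. Exceptions are stated as chosen after their values were seen. The comparison and lists were chosen with earlier results of these data known. Alternatives were other pseudocounts, minimum levels, ratios and scalings, windows with whole reads, misannotated windows kept, narrower arms and marks in either replicate. Coordinates are ce6, counted from 1. A ce6 gene annotation was not used here, so windows carry no gene names, the deleted genes were not checked in the libraries, and tissue markers were not checked.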

Additional observations from a re-analysis of the deposited data

How the results depend on the processing

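Of 114 values recomputed under an alternative, 76 moved by less than their interval or kept a count within 1.5 times, 33 moved further and 5 crossed a ratio of 1, namely arms (1.00 and 1.02) and centres (1.07 and 1.09) under rescaling to windows in no list and under trimmed-mean rescaling, and centres (1.01) with totals taken without the rRNA gene windows, where arms were 0.946. The X median was 0.894 and 0.908 under the first 2 of these. Higher calls were 1673 under trimmed-mean rescaling (lower 1202) and 725 with whole reads alone. Counts of higher and lower calls were 2457 and 4340 at a minimum of 10 RPKM, 312 and 239 at 50 RPKM, 2643 and 3472 at a ratio of 1.5, and 331 and 235 at a ratio of 4, so that the side with more calls turned at the stricter settings. The GRTS median ratio was 10.3 with 0.1 RPKM added, 4.00 with 5 RPKM added and 10.6 at a mean of at least 20 RPKM, and the GRH median 1.60 with 5 RPKM added. With 5 RPKM added arms were 0.930 and X 0.874, and X was 0.805 with 0.1 RPKM added. At a mean of at least 20 RPKM, SET-32-dependent, MET-2 SET-25-dependent and triple-marked windows were at 1.60, 1.16 and 1.19, arms, centres and X at 0.988, 0.997 and 0.887. At a mean of at least 5 RPKM the 3 mark lists were at 1.53, 1.19 and 1.20. Without any minimum, arms, centres and X were at 1.00, and tier 1 was at 1.25. The lists had no minimum to begin with. The cause of these moves was not tested beyond what each setting itself changes. No paired analysis was possible because each genotype has 1 library. Depth limits single windows, since 20 RPKM is under 14 reads, and a spread between animals or preparations could not be measured.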

Other observations

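In the left 30% of X the median ratio of windows with a pair mean of 5 RPKM or more was 0.814 while the ratio of sums was 1.05 (1.03 to 1.07), against ratios of sums of 0.881 in the middle of X and 0.902 in its right 30%. The 5 windows there with the largest surplus in hrde-1, chosen after their values were seen, were X:5101001-5104000 (a mean of 1285 RPKM in hrde-1, 685.1 RPKM in met-2 set-25 worms, 922.9 RPKM in WT and 1577 RPKM in set-32), X:5105001-5106000 (1019 RPKM in hrde-1, 528.3 RPKM in met-2 set-25 worms and 698.4 RPKM in WT) and X:3404001-3405000 (855.9 RPKM in hrde-1, 366.9 RPKM in met-2 set-25 worms and 703.7 RPKM in WT). All were in tiers 3 and 4 and held reads shared with other places.

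Among GRH windows outside GRTS, the highest ratios were at II:2034001-2035000 (58 reads in hrde-1 and 1 in met-2 set-25, a ratio of 57.4 with a counting interval of 9.88 to 2300, WT at 10.9 RPKM) and I:5465001-5466000 (44 reads in hrde-1 and 2 in met-2 set-25, WT at 10.0 RPKM). They were chosen after their values were seen. The I:5465001-5466000 window carried no loss mark.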
